A study of Homo sapiens with 34 samples.

Results

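The MYC gene and the chromatin elements within a window of 2 Mb around it on chromosome 8 were described in DLD1 cells, a human colorectal adenocarcinoma line. The members were MYC itself and every region that the 4 deposited peak lists hold from position 126700000 to 128700000 (GRCh38). They came to 349 regions of the 265904 regions on the autosomes and X. The H3K27ac lists gave 143 regions in induced and 124 in uninduced cells, and the RNA polymerase II (Pol II) lists gave 38 in induced and 44 in uninduced cells. The DLD1 cells (labelled DNTCF) carried a dominant negative TCF7L2 under tetracycline control. Induced cells had 1 µg/mL doxycycline for 24 h, and uninduced cells had none. Each antibody and condition had 2 samples, and each condition had 1 input sample. One peak list served both samples, so replicates could not be compared and every difference below stands without a replicate check or p-value. Both conditions carry the transgene, and the ChIP-seq samples hold no doxycycline-treated cells without it, so effects of the drug and of the transgene cannot be told apart. The sources used here do not name the clone or the promoter of the transgene. Another 24 samples, RNA-seq of engineered colorectal lines, were not analysed here.

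MYC encodes a transcription factor that drives ribosome production, metabolism and cell division, and it is a textbook target of Wnt signalling in the intestine. When Wnt is active, β-catenin enters the nucleus and binds TCF7L2 on DNA, and a dominant negative TCF7L2 occupies those sites without recruiting β-catenin. The gene lies in a wide interval with few other protein-coding genes, and in colorectal cells distant elements on both sides of it act as enhancers. H3K27ac, acetylation of lysine on histone H3, marks active promoters and enhancers, and Pol II gathers at promoters, at the ends of active genes and, more weakly, at active enhancers.

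Regions of both conditions that shared at least 1 bp were joined into 1 element. The fold of an element is the authors' fold enrichment at its highest summit, a ratio over the peak caller's background, and −log10 q is the authors' score of confidence. Distances run from the start of MYC to the summit with the highest −log10 q in uninduced cells. For elements of induced cells alone, the induced summit was used. In a shared element the highest induced summit can lie elsewhere, so a ratio need not compare the same place. The window held 137 H3K27ac elements, of which 102 were listed in both conditions, 20 in induced cells alone and 15 in uninduced cells alone. Elements listed in induced cells alone made up 14.6% of them (95% Wilson interval 9.65 to 21.5%), beside 11.8% over the autosomes and X. Those listed in uninduced cells alone made up 10.9% (6.75 to 17.3%), beside 13.6%. All 35 were weak: the highest fold was 5.29 among those of induced cells and 3.93 among those of uninduced cells. The acetylation map around MYC was therefore mostly the same set of places in both conditions, as the map of elements shows.

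Pol II had 46 elements in the window, 26 of them in both lists, 4 in induced cells alone and 16 in uninduced cells alone. The share in induced cells alone was 8.70% (3.43 to 20.3%), beside 9.1% over the autosomes and X. The share in uninduced cells alone was 34.8% (22.7 to 49.2%), beside 29.1%. More Pol II elements were listed without induction, in the window as over all chromosomes.

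**Figure D1:**
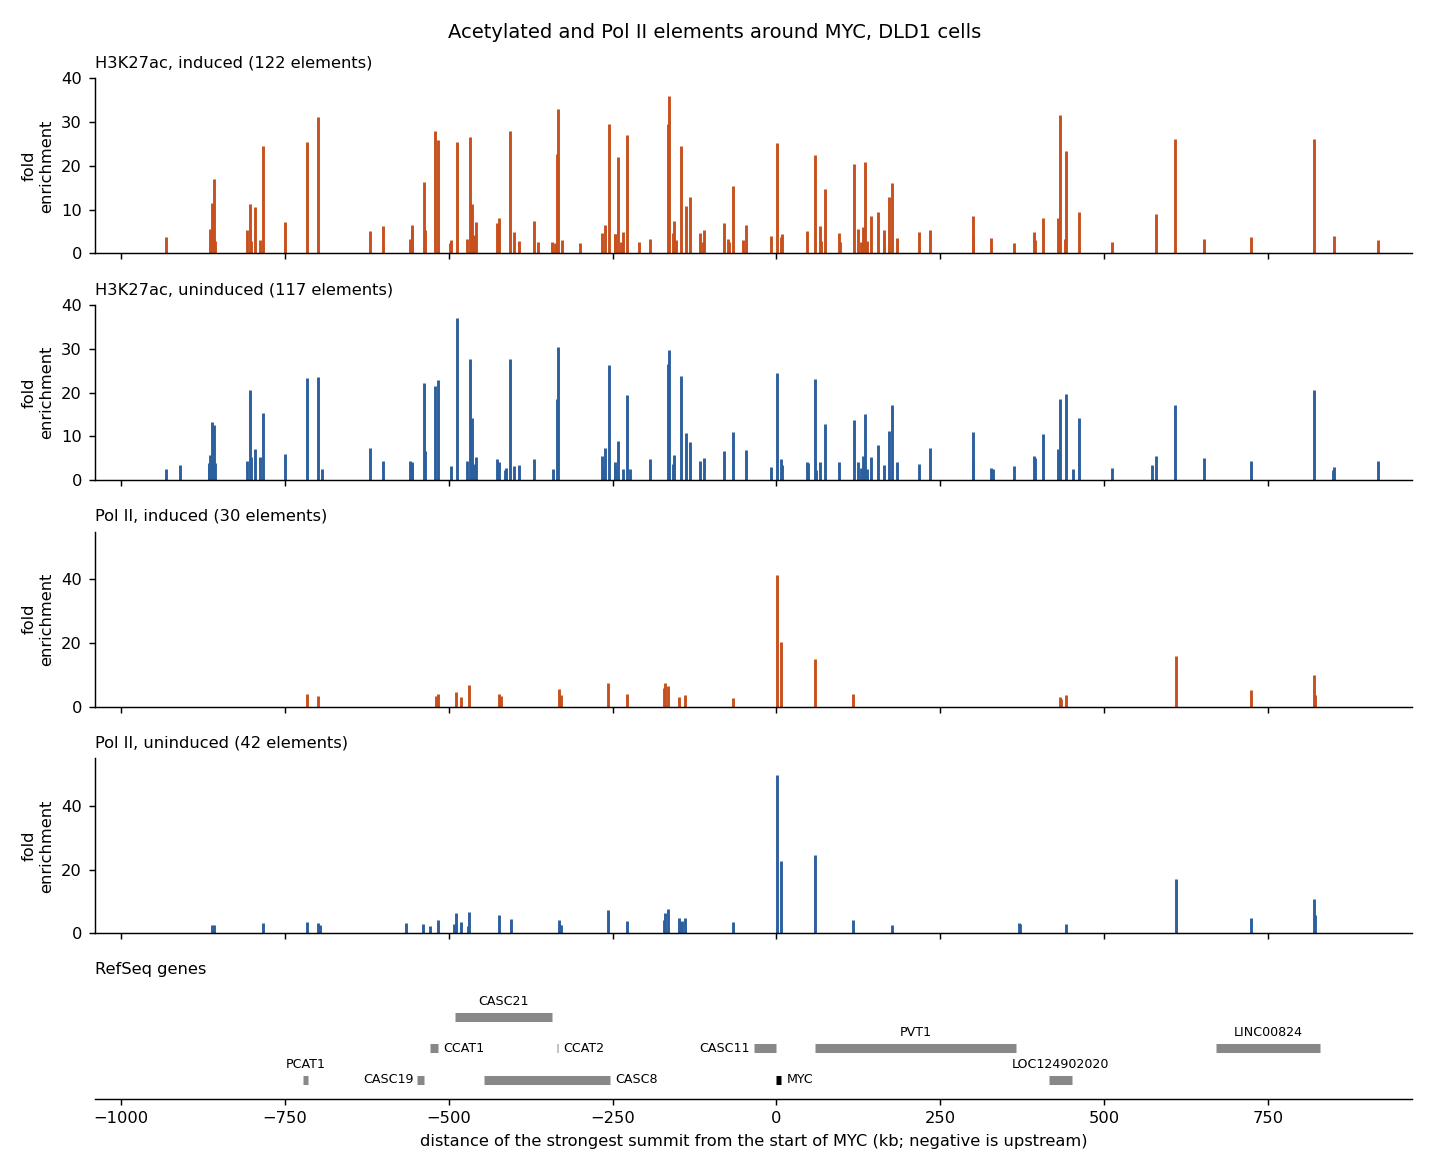
Fold enrichment of each H3K27ac and Pol II element (vertical lines) against the distance of its strongest summit from the start of MYC in kb, with induced cells above uninduced cells and RefSeq genes at the bottom. The 137 acetylated elements reach from 931 kb upstream to 918 kb downstream, while Pol II folds above 10 occur at MYC, at the start of PVT1 and at far downstream elements.

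MYC (gene 4609, chr8:127735434-127742951) carried both marks in both conditions. Its H3K27ac element, chr8:127732301-127741168, spans the promoter and most of the gene. It covered 8467 bp with 13 summits in induced cells and 8868 bp with 14 summits in uninduced cells. Its fold was 25.3 in induced and 24.5 in uninduced cells, a ratio of 1.03, and its −log10 q was 162 in induced and 179 in uninduced cells. Acetylated regions covered 90.7% of the gene's length in induced and 94.9% in uninduced cells. By its highest fold the mark at MYC was thus close in the 2 lists, beside a median ratio of 1.11 over all protein-coding genes. That highest summit lay 222 bp past the start in induced and 1883 bp in uninduced cells. The ratio of 1.03 therefore compares different places.

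Pol II was concentrated at both ends of MYC. The element at the promoter, chr8:127733833-127739241, had a fold of 41.5 in induced and 49.9 in uninduced cells, a ratio of 0.832. Its −log10 q was 298 in induced and 422 in uninduced cells. A second element, chr8:127741451-127744536, lay 7.03 kb from the start and ran past the end of the gene. Its fold was 20.4 in induced and 22.7 in uninduced cells (ratio 0.899). Pol II regions covered 63.8% of MYC in induced and 68.6% in uninduced cells. Both MYC elements had a lower fold after induction by less than 1.5 times, the size from which a ratio was counted as lower or higher.

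Within MYC the summits did not all differ the same way. Summits of the 2 conditions within 200 bp of each other, each the nearest to the other, were taken as pairs. The highest Pol II summit lay 801 bp past the start in induced and 836 bp in uninduced cells, with folds of 41.5 in induced and 49.9 in uninduced cells. The summit just before the start, 160 bp upstream in induced and 172 bp in uninduced cells, had a fold of 19.5 in induced and 14.1 in uninduced cells (ratio 1.38). The summit 1.06 kb upstream in induced and 1.07 kb in uninduced cells had 22.04 in induced and 21.59 in uninduced cells. So of the 3 promoter summits, the one inside the gene was lower in induced cells and the one at the start was higher.

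Between the 2 ends of MYC, Pol II was weak in both lists. Near 2.4 kb into the gene the fold was 7.63 in induced and 7.69 in uninduced cells. In uninduced cells a single region ran from the promoter to 127739161. In induced cells it broke into 2 regions, the second a weak stretch of 619 bp reaching a fold of 3.62 (−log10 q 4.27). That stretch falls below a −log10 q of 5. With summits of at least 5 the difference in coverage, induced minus uninduced, was −13.1 percentage points. The uninduced summit there was as weak (fold 3.21, −log10 q 4.29), but its length still counted because it was joined to the promoter region. The larger difference thus reflects where the regions were split. Of the 7 pairs of Pol II summits within 10 kb of the start, 4 had a lower fold in induced cells and 3 a higher one. All 7 had a lower −log10 q, which was common: over the autosomes and X it was lower in 84.1% of shared Pol II elements.

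For H3K27ac, 14 pairs of summits lay within 10 kb of the start, 7 with a ratio below 1 and 7 with a ratio above 1. The −log10 q was lower in induced cells in 11 of the 14, beside 60.5% of shared H3K27ac elements over the autosomes and X. The pair 222 bp into the gene in induced and 229 bp in uninduced cells had folds of 25.3 in induced and 23.9 in uninduced cells. Inside the gene, the pair near 1.9 kb had 17.7 in induced and 24.5 in uninduced cells, and the pair near 2.6 kb had 14.6 in induced and 20.4 in uninduced cells. Farther in, near 4.1 kb, the order was the other way, with 10.2 in induced and 6.37 in uninduced cells. A summit 847 bp upstream with a fold of 23.3 was listed in uninduced cells and had no pair in induced cells. That summit falls within 1 kb of CASC11, the lncRNA gene just upstream, while the next summit toward MYC falls outside that margin in both lists. The highest acetylation within 1 kb of CASC11 was therefore 12.1 in induced and 23.3 in uninduced cells, a difference set by where the margin ends. The regions covered 7.46% of CASC11 in induced and 7.45% in uninduced cells.

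**Figure D2:**
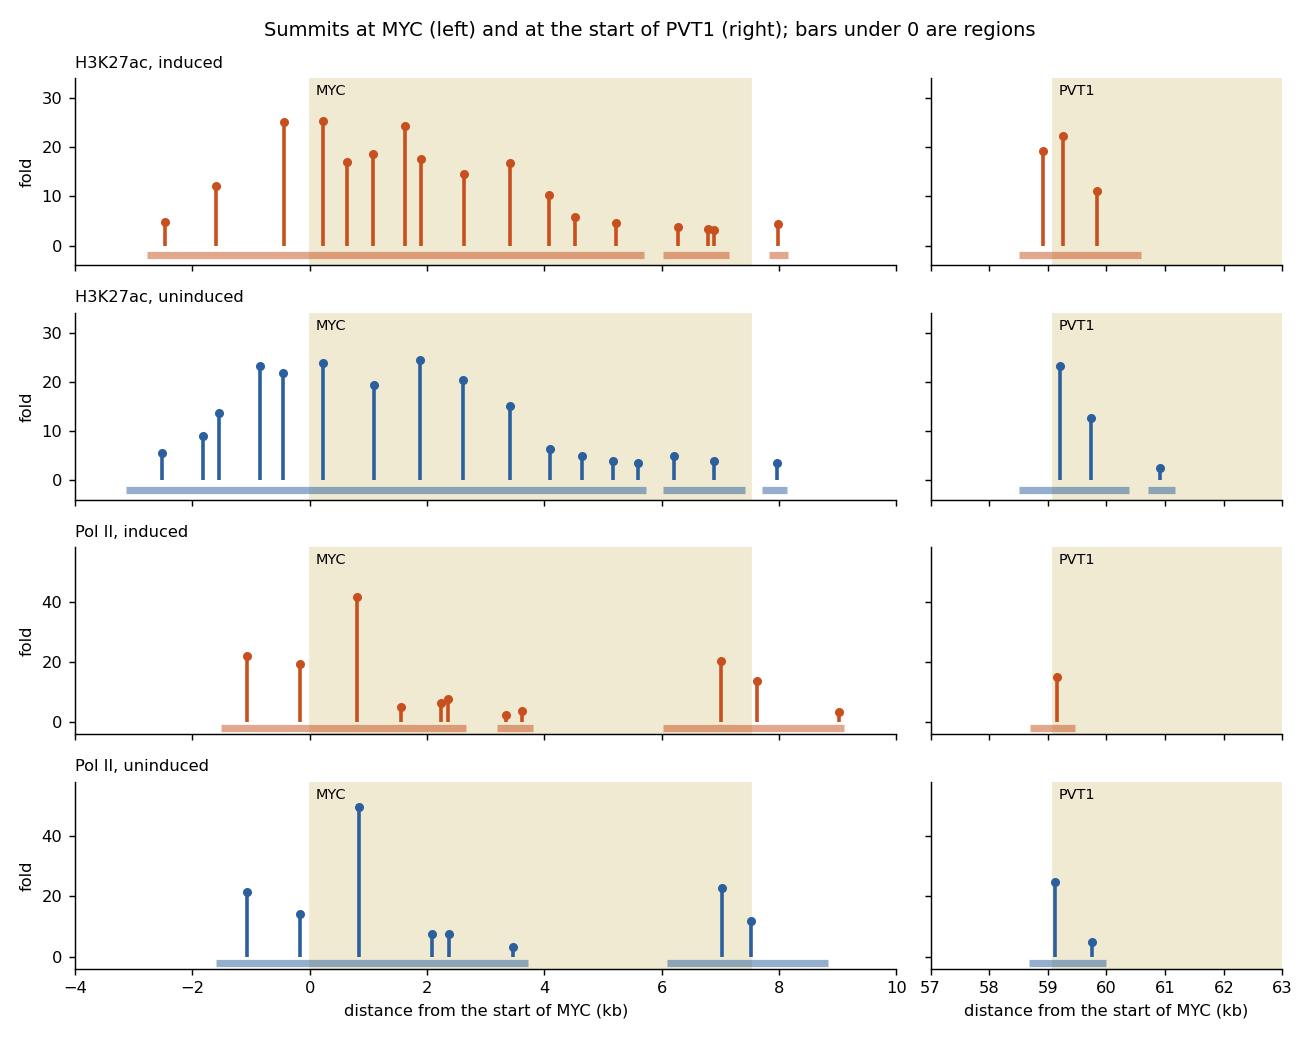
Fold enrichment of every listed summit (points on lines) against distance from the start of MYC in kb, at MYC on the left and at the start of PVT1 on the right, with shaded gene bodies and the listed regions as bars under 0. Pol II reached 41.5 at MYC and 15.0 at PVT1 in induced cells, against 49.9 and 24.8 in uninduced cells, while the H3K27ac summits at both promoters stood near 22 to 25 in either condition.

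PVT1, a long noncoding RNA gene of 307 kb that starts 59.1 kb downstream of MYC, had the lowest Pol II ratio of all shared elements of the window. At its start Pol II had a fold of 15.0 in induced and 24.8 in uninduced cells (ratio 0.606). Its −log10 q was 84.9 in induced and 179 in uninduced cells, and the element was 765 bp wide in induced and 1324 bp in uninduced cells. A second summit in the element, with a fold of 4.92, was listed in uninduced cells alone. H3K27ac at the same place had a fold of 22.4 in induced and 23.1 in uninduced cells (ratio 0.968). The PVT1 start was thus lower in Pol II and close in acetylation after induction.

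The body of PVT1 is dotted with acetylated elements, 27 in all with that at its start, of which 22 were shared, 3 were listed in induced cells alone and 2 in uninduced cells alone. Elements less than 10 kb apart were grouped into stretches, and the longest stretch of the window, 71.2 kb, lay in PVT1 from 113 to 185 kb downstream with 13 elements. Its highest folds in induced cells were at 135 kb, with 21.0 in induced and 15.2 in uninduced cells, and at 119 kb, with 20.5 in induced and 13.8 in uninduced cells. Its highest fold in uninduced cells was at 176 kb, with 16.1 in induced and 17.1 in uninduced cells (ratio 0.938). The element at 143 kb had 8.54 in induced and 5.25 in uninduced cells (ratio 1.63). In the elements at 119 and 143 kb, the summits of highest −log10 q lay 2347 and 2977 bp apart in the 2 lists. Their induced and uninduced folds may therefore come from different places within each element. Of the 12 shared members of this stretch, 9 had a ratio above 1, beside 34681 of 62253 shared elements over the autosomes and X. The element 164 kb downstream, where the fold was 5.29 and the −log10 q 11.5, was the strongest of the acetylated elements listed in induced cells alone.

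Pol II inside PVT1 was sparse. The element at 116 kb had a fold of 3.99 in induced and 4.12 in uninduced cells, and that at 176 kb, with 2.72, was listed in uninduced cells alone. In PVT1 past the longest stretch, 4 of 6 shared acetylated elements had a ratio below 1 and 2 a ratio above 1. Over the autosomes and X, 44.3% of shared acetylated elements had a ratio below 1. The element at 299 kb had 8.46 in induced and 10.9 in uninduced cells, that at 234 kb had 5.41 in induced and 7.24 in uninduced cells, and that at 217 kb had 4.83 in induced and 3.72 in uninduced cells. The microRNA gene MIR1204 lies at the edge of the element at the PVT1 start, whose H3K27ac regions covered 82.1% of it in induced and 0% in uninduced cells. MIR1205, MIR1206, MIR1207, MIR1208 and LINC02912 had no listed region in them or within 1 kb in any list.

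Upstream of MYC the nearest elements were mostly weak. That at 8.38 kb, in CASC11, had a fold of 4.02 in induced and 3.02 in uninduced cells. The strongest was at 66.3 kb, at LOC105375754, with 15.4 in induced and 10.9 in uninduced cells (ratio 1.42). Pol II there was 2.64 in induced and 3.43 in uninduced cells, so the marks differed in opposite directions. The elements at 73.5 and 51.7 kb, with folds of 3.34 and 3.14, were listed in induced cells alone.

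A strong stretch of 43.6 kb, from 131 to 175 kb upstream and in no gene, came next. It held 11 H3K27ac elements, and all 7 that were shared had a ratio above 1. Over the autosomes and X, 34681 of 62253 shared elements had such a ratio, with a median of 1.04. The other 4, all weak, were listed in induced cells alone. The highest acetylation of the window in induced cells was here, at 164 kb upstream (chr8:127570469-127575265): 36.1 in induced and 29.7 in uninduced cells, with −log10 q of 251 in induced and 284 in uninduced cells. Its neighbour at 166 kb had 29.6 in induced and 26.6 in uninduced cells over more than 9 kb in each. Those at 145 and 139 kb had ratios of 1.03 and 1.01. The shared elements of this stretch were thus as high or higher in the induced list.

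Pol II in this stretch had 7 elements and covered 6.11 kb in induced and 9.72 kb in uninduced cells. At 165 kb it had a fold of 6.62 in induced and 7.67 in uninduced cells, and at 169 kb 7.34 in induced and 6.44 in uninduced cells. At 172 kb the fold was higher, 5.83 in induced and 4.09 in uninduced cells (ratio 1.42). The side nearer to MYC had less Pol II: at 149 kb the fold was 3.07 in induced and 4.84 in uninduced cells (ratio 0.635), with widths of 305 bp in induced and 1564 bp in uninduced cells. At 139 kb it was 3.75 in induced and 4.80 in uninduced cells. The elements at 146 and 144 kb, with 3.45 and 3.93, were listed in uninduced cells alone. Pol II thus differed in both directions within this stretch.

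A weak element at 193 kb had 3.29 in induced and 4.74 in uninduced cells (ratio 0.694), and another at 209 kb was listed in induced cells alone. Past them, a stretch of 43.9 kb from 223 to 266 kb upstream reaches into CASC8, a long noncoding RNA gene. Its element at 241 kb had the highest H3K27ac ratio of the window: 21.96 in induced and 8.82 in uninduced cells (ratio 2.49), with −log10 q of 132 in induced and 70.6 in uninduced cells. Those at 235 and 247 kb, both weak, had ratios of 1.89 and 1.81. Its strongest member, at 256 kb, had 29.7 in induced and 26.3 in uninduced cells, and Pol II there was 7.34 in induced and 7.42 in uninduced cells. At 228 kb acetylation was 26.96 in induced and 19.43 in uninduced cells, and Pol II 4.02 in induced and 3.72 in uninduced cells. The acetylated element at 241 kb carried no Pol II region in either list.

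The elements over CCAT2, a noncoding RNA gene inside CASC8 named for its expression in colon cancer, were among the strongest. The element 334 kb upstream (chr8:127401120-127407828) had a fold of 32.9 in induced and 30.5 in uninduced cells, with −log10 q of 232 in induced and 273 in uninduced cells. The adjoining element at 335 kb had 22.8 in induced and 18.6 in uninduced cells. Acetylated regions covered 94.3% of CCAT2 in induced and 94.9% in uninduced cells. Pol II covered 30.9% of it in induced and 60.5% in uninduced cells. The Pol II fold of the long element over these, strongest at 332 kb, was nevertheless higher, 5.51 in induced and 4.10 in uninduced cells (ratio 1.34), over 2598 bp in induced and 3975 bp in uninduced cells. A small Pol II element at 329 kb had the highest ratio of the shared Pol II elements, 3.79 in induced and 2.55 in uninduced cells (1.48), and another at 330 kb, with 2.73, was listed in uninduced cells alone. Within CCAT2 or 1 kb of it the highest Pol II fold was 3.23 in induced and 3.62 in uninduced cells. The long Pol II element was thus narrower with a higher top summit in induced cells, and that summit lies outside CCAT2.

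POU5F1B, a protein-coding copy of the stem cell factor gene POU5F1, lies 318 to 322 kb upstream and had no region of either mark in it or within 1 kb. Reads from near-identical copies can be lost or split in mapping, so its value is uncertain.

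Farther out in CASC8 and CASC21, the element at 406 kb had an acetylation fold of 27.95 in induced and 27.78 in uninduced cells. Pol II there, where the fold was 4.50 and the −log10 q 9.97, was the strongest of the Pol II elements listed in uninduced cells alone. At 424 kb acetylation was 8.19 in induced and 4.21 in uninduced cells (ratio 1.95), while Pol II at 423 kb was 3.92 in induced and 5.75 in uninduced cells (ratio 0.682). A Pol II region at 420 kb, with 3.47, was listed in induced cells alone and lay on no acetylated region. The 2 marks again differed in opposite directions at the same place.

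The widest acetylated element of the window lay in CASC21 near its end farther from MYC, 487 kb upstream (chr8:127239392-127255472). It covered 14.4 kb in induced and 15.9 kb in uninduced cells, with 19 summits in each. Its fold was 25.4 in induced and 37.1 in uninduced cells (ratio 0.685), and its −log10 q was 202 in induced and 299 in uninduced cells. In uninduced cells this fold lay at the 99.6th percentile of all shared H3K27ac elements, and in induced cells at the 87.3rd. In the induced list the same interval was split into 5 regions, and in the uninduced list it was 1. It was the strongest element of the window by −log10 q without induction, and with induction others passed it.

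Pol II on this element was lower and much narrower. At 488 kb the fold was 4.67 in induced and 6.43 in uninduced cells (ratio 0.726), the −log10 q 9.50 in induced and 24.2 in uninduced cells, and the width 644 bp in induced and 2952 bp in uninduced cells. At 482 kb the fold was 3.16 in induced and 3.51 in uninduced cells, and at 492 kb a fold of 2.91 was listed in uninduced cells alone. Over the whole stretch from 457 to 498 kb, Pol II covered 2.41 kb in induced and 5.97 kb in uninduced cells, whereas H3K27ac covered 28.5 kb in induced and 30.1 kb in uninduced cells. The neighbour at 468 kb stood apart: its acetylation was 26.5 in induced and 27.7 in uninduced cells, and the Pol II fold 469 kb upstream was 6.91 in induced and 6.84 in uninduced cells. A weak Pol II element at 470 kb, with 2.34, was listed in uninduced cells alone. At the element 487 kb upstream both marks were lower in the induced list.

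CCAT1, a noncoding RNA gene known for high expression in colon cancer, was acetylated over its whole length. Regions covered 99.1% of it in induced and 98.8% in uninduced cells. The elements at 521 and 516 kb, each more than 10 kb wide, had folds of 28.01 and 25.97 in induced cells, against 21.59 and 22.96 in uninduced cells. Pol II at 516 kb had 3.86 in induced and 4.34 in uninduced cells. A Pol II region inside CCAT1 at 520 kb, with 3.34, was listed in induced cells alone, and one at the edge of the gene farther from MYC, at 528 kb, with 2.25, in uninduced cells alone. CASC19, next to it, had a lower acetylation fold, 16.4 in induced and 22.3 in uninduced cells (ratio 0.736), and its Pol II region at 539 kb, with 2.83, was listed in uninduced cells alone.

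From 554 to 621 kb the elements were weak. That at 557 kb had 5.39 in induced and 3.09 in uninduced cells (ratio 1.74). A Pol II region at 564 kb, with 3.21, lay on no acetylated region and was listed in uninduced cells alone. No region of either mark lay in or within 1 kb of PCAT2 or PRNCR1, noncoding RNA genes named for prostate cancer.

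Next came strong elements at PCAT1, also a noncoding RNA gene named for prostate cancer. The element at 716 kb had 25.4 in induced and 23.3 in uninduced cells, and that at 699 kb, in no gene, had 31.3 in induced and 23.6 in uninduced cells. Pol II at 716 kb was 3.85 in induced and 3.66 in uninduced cells, but 423 bp wide in induced and 1351 bp in uninduced cells. At 699 kb it was 3.50 in induced and 3.27 in uninduced cells, and at 697 kb a fold of 2.69 was listed in uninduced cells alone. Pol II covered 5.38% of PCAT1 in induced and 17.2% in uninduced cells.

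The farthest upstream elements lay in the long lncRNA gene LOC105375751. They held the 3 lowest ratios of H3K27ac in the window. At 804 kb the fold was 11.2 in induced and 20.6 in uninduced cells (ratio 0.544), with −log10 q of 56.3 in induced and 120 in uninduced cells. At 801 kb it was 2.87 in induced and 5.26 in uninduced cells (0.545), and at 788 kb 3.02 in induced and 5.26 in uninduced cells (0.575). Their neighbours differed the other way: that at 795 kb had 10.7 in induced and 7.12 in uninduced cells, and that at 783 kb had 24.7 in induced and 15.3 in uninduced cells (ratio 1.61). The 2 stretches from 782 to 867 kb had 3 Pol II elements, at 861, 858 and 784 kb, with folds of 2.68, 2.53 and 3.16, all listed in uninduced cells alone. Of the acetylated elements listed in uninduced cells alone, the strongest, at 865 kb with 3.93, was also here.

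Beyond PVT1, on the downstream side, the element at 433 kb in LOC124902020 had an acetylation fold of 31.6 in induced and 18.5 in uninduced cells (ratio 1.71). Its Pol II regions at 432 and 434 kb, with 3.04 and 2.29, were listed in induced cells alone. Its neighbour at 441 kb had 23.4 in induced and 19.8 in uninduced cells, with Pol II of 3.64 in induced and 2.99 in uninduced cells (ratio 1.22). At 462 kb acetylation was 9.46 in induced and 14.1 in uninduced cells (ratio 0.672), and at 395 kb 3.12 in induced and 5.14 in uninduced cells (0.607). Acetylation was thus higher in induced cells at 433 and 441 kb. Pol II there was higher or listed in induced cells alone, but weak, with a −log10 q of 4.66 or less. The elements at 462 and 395 kb had lower acetylation and no Pol II region in either list.

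Far downstream, an element 608 kb from MYC in no listed gene had the highest Pol II fold outside MYC and PVT1, 16.0 in induced and 17.2 in uninduced cells. It was compact, with a Pol II width of 1133 bp in induced and 989 bp in uninduced cells. Its acetylation was 26.3 in induced and 17.1 in uninduced cells (ratio 1.53). In LINC00824, the element at 820 kb had acetylation of 26.2 in induced and 20.6 in uninduced cells, and its Pol II was 9.98 in induced and 10.8 in uninduced cells. A second Pol II element there, at 822 kb, had 3.70 in induced and 5.73 in uninduced cells (ratio 0.645). Pol II at 723 kb was 5.11 in induced and 4.80 in uninduced cells, and at 653 kb a weak acetylated element had 3.24 in induced and 4.93 in uninduced cells (ratio 0.658). Weak Pol II regions at 370 and 372 kb, with 3.127 and 2.998, lay on no acetylated region and were listed in uninduced cells alone.

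Over all 102 shared H3K27ac elements of the window, 65 had a ratio above 1 and 37 below 1, with a median of 1.13, beside a median of 1.04 over all 62253 shared elements on the autosomes and X. By the size of 1.5 times, 13 were higher in induced cells, 12.7%, beside 11.5% over all elements. Lower were 5, which is 4.90%, beside 9.44%. Of the 26 shared Pol II elements, none was higher, beside 4.2% over all 37064, and 3 were lower, 11.5%, beside 12.5%. The median Pol II ratio was 0.924 in the window and 0.923 over all shared elements. By these counts the elements around MYC did not stand far from the rest of the genome in the fold of either mark.

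**Figure D3:**
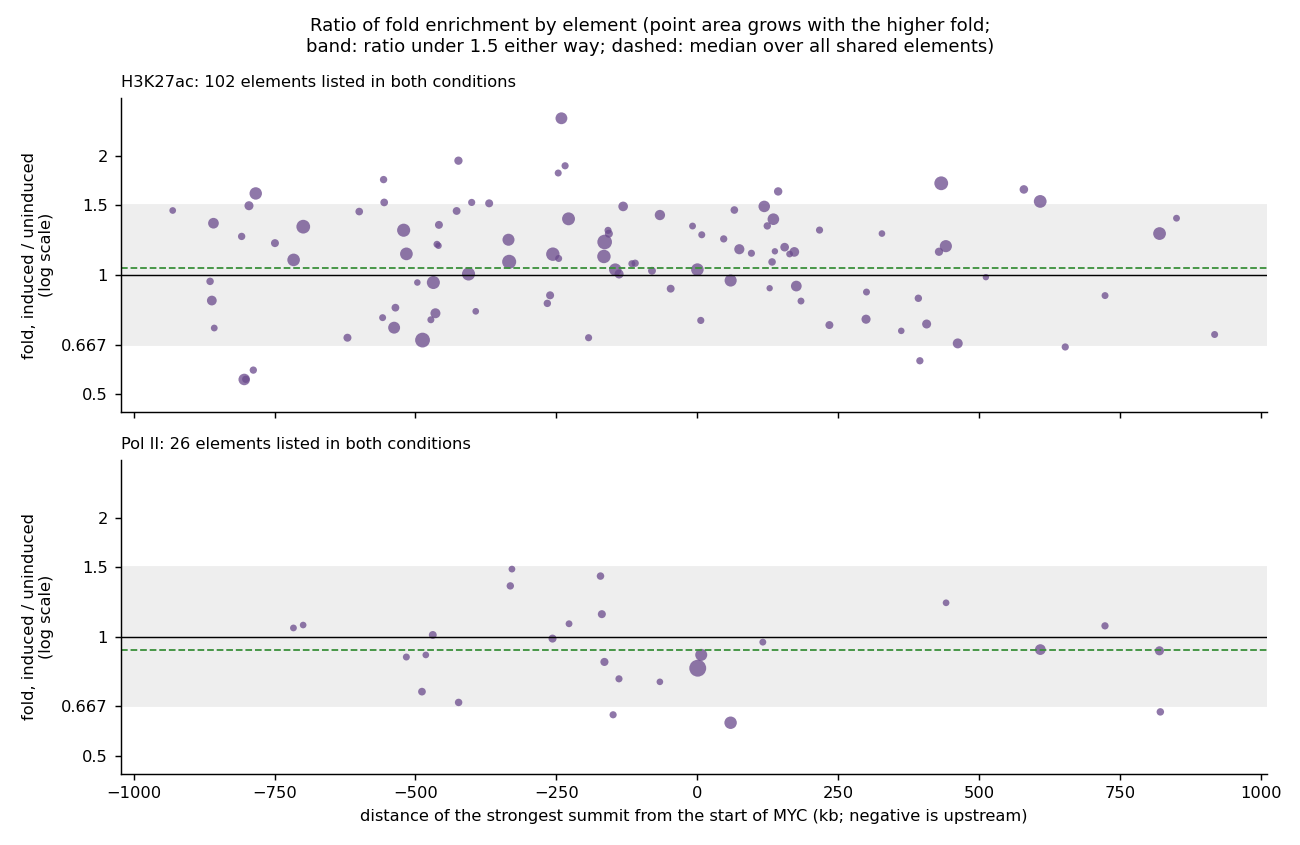
Ratio of fold enrichment, induced over uninduced on a log axis, against distance from the start of MYC in kb for the elements listed in both conditions, with point area growing with the higher fold, a grey band for ratios under 1.5 either way and a dashed line at the median of all shared elements. H3K27ac ratios run from 0.544 to 2.49, and Pol II ratios run from 0.606 at the PVT1 start to 1.48.

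The width of Pol II was where the window differed more. Pol II regions covered 32.5 kb of the window in induced and 48.0 kb in uninduced cells, a ratio of 0.678, beside 0.800 over the autosomes and X. Over 838 tiles of 2 Mb with at least 20 kb covered in uninduced cells, the median ratio was 0.789 and the middle 50% ran from 0.732 to 0.833. H3K27ac covered 263 kb in induced and 266 kb in uninduced cells (ratio 0.989, beside 0.971 over the autosomes and X). The mean fold of the Pol II regions, weighted by their length, was 11.9 in both conditions, and their median fold was 3.82 in induced and 3.69 in uninduced cells. Among the 26 shared Pol II elements, 19 were narrower in induced cells, 73.1% beside 76.6% over all, and the median ratio of widths was 0.758, beside 0.881.

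Most of the difference in Pol II length lay upstream of MYC. There Pol II covered 18.8 kb in induced and 33.2 kb in uninduced cells (ratio 0.567). Within 10 kb of MYC it covered 7.89 kb in induced and 8.08 kb in uninduced cells (0.976), in PVT1 1.19 kb in induced and 1.97 kb in uninduced cells (0.602), and beyond PVT1 4.62 kb in induced and 4.71 kb in uninduced cells (0.981). Of the 16 Pol II elements listed in uninduced cells alone, 13 lay upstream, beside 32 of all 46 Pol II elements of the window. H3K27ac upstream covered 182 kb in induced and 186 kb in uninduced cells (0.982).

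Most Pol II elements of the window lie away from protein-coding genes, where Pol II lists differed more in general. Of the Pol II elements more than 1 kb from any protein-coding gene, the 44 in the window covered 24.6 kb in induced and 39.9 kb in uninduced cells (ratio 0.618). The 21984 such elements elsewhere had a ratio of covered length of 0.710. The share listed in uninduced cells alone was 36.4% in the window and 34.6% elsewhere, and the median fold ratio of shared elements was 0.948 in the window and 0.910 elsewhere. In covered length and in the share listed without induction, the window lay nearer to elements of this kind than to all elements, and in the median fold ratio it lay nearer to all elements.

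**Figure D4:**
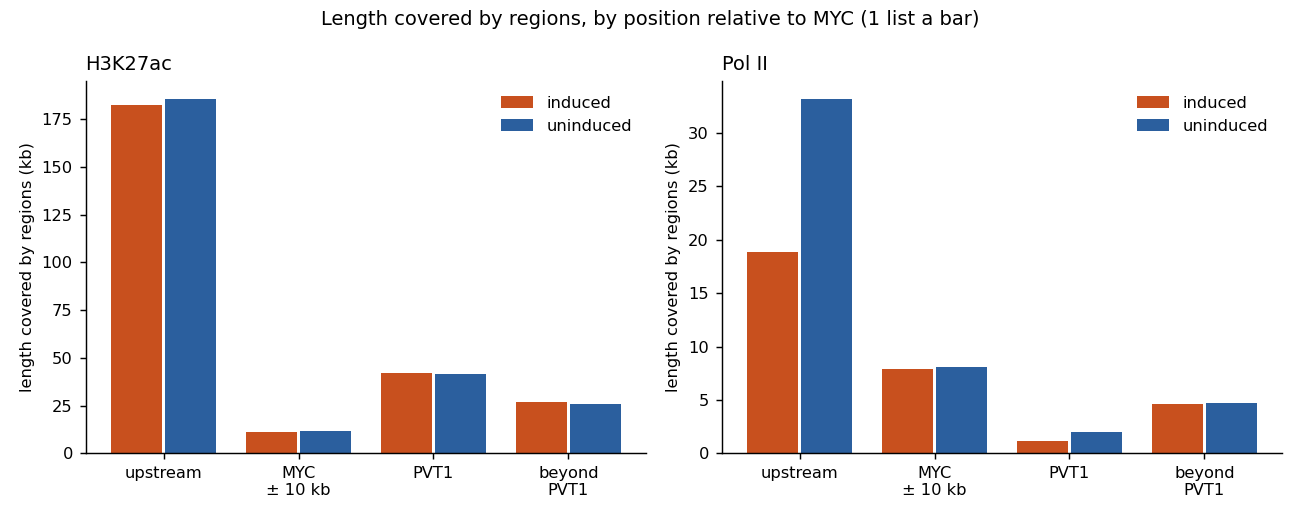
Length in kb covered by H3K27ac regions (left) and Pol II regions (right) upstream of MYC, within 10 kb of it, in PVT1 and beyond PVT1, with a bar for each list and the induced bar left of the uninduced bar. Upstream, Pol II covered 18.8 kb in induced and 33.2 kb in uninduced cells, while H3K27ac covered 182 kb in induced and 186 kb in uninduced cells.

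Pol II in the window sat nearly always on acetylated elements. In induced cells 37 of 38 Pol II regions overlapped an H3K27ac region, 97.4% (86.5 to 99.5%), and in uninduced cells 41 of 44, 93.2% (81.8 to 97.7%). Over the autosomes and X the shares were 62.3% in each condition. The reverse was less common: 18.2% of acetylated regions overlapped a Pol II region in induced and 24.2% in uninduced cells, beside 33.9% in induced and 39.8% in uninduced cells over all. The acetylated elements with Pol II were the broad ones, with a median width of 4587 bp in induced and 4748 bp in uninduced cells, while those without had 791 bp in induced and 936 bp in uninduced cells.

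There were 31 acetylated elements with Pol II in at least 1 list, and all 31 were acetylated in both. Pol II was listed in both conditions on 24, in uninduced cells alone on 6 and in induced cells alone on 1. On the 24, the Pol II fold was lower in induced cells on 16 and higher on 8. Of those 16, acetylation had a ratio above 1 on 13 and below 1 on 3. The 13 with less Pol II and more acetylation made up 54.2% of the 24, beside 34.4% of the 24981 such elements over the autosomes and X. A ratio of acetylation above 1 was itself more common among these elements, 79.2% beside 63.9%. The element 487 kb upstream was among the 3 where both marks were lower. Neighbouring elements can share a Pol II region, so these counts are not of independent sites.

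Among 13647 protein-coding genes with a summit of both marks in both conditions, MYC's Pol II fold lay at the 94.6th percentile in induced and the 99.0th in uninduced cells, with 734 genes higher in induced and 138 in uninduced cells. Its H3K27ac fold lay at the 50.6th percentile in induced and the 61.8th in uninduced cells. By its highest fold among these genes, MYC thus had very high Pol II and middling acetylation. That measure leaves out breadth: acetylated regions covered 90.7% of MYC in induced and 94.9% in uninduced cells. Over 4 values (the highest fold of each mark in each condition, log2), the genes nearest to MYC were RPL26, EXT1, H1-4, MID1IP1 and ERV3-1, with Euclidean distances from 0.0850 to 0.138. RPL26, which encodes a ribosomal protein, had a Pol II fold of 42.8 in induced and 49.9 in uninduced cells and H3K27ac of 24.99 in induced and 23.35 in uninduced cells. EXT1, an enzyme gene of heparan sulfate synthesis, had Pol II of 40.2 in induced and 51.1 in uninduced cells.

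Genes of the pathway around MYC were read the same way, by the highest fold within the gene or 1 kb of either end. Over all protein-coding genes with a summit in both lists, H3K27ac was lower by the called size in 3.83% and higher in 11.9%, and Pol II was lower in 11.2% and higher in 4.69%. Of 40 Wnt and TCF target genes, H3K27ac was lower in 3 and higher in 3. Their median ratio was 1.03, beside 1.11 over all genes. The lower ones were CCND2, a cyclin (5.13 in induced and 12.8 in uninduced cells), CRIPTO, a co-receptor of Nodal (8.12 in induced and 19.0 in uninduced cells), and TCF7L1, a relative of TCF7L2 (18.1 in induced and 39.8 in uninduced cells). The higher ones were SP5, a transcription factor induced by Wnt (43.4 in induced and 21.1 in uninduced cells), CDCA7 (43.6 in induced and 26.6 in uninduced cells) and DKK4, a secreted Wnt inhibitor (34.4 in induced and 21.1 in uninduced cells).

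Pol II was lower by the called size in 3 of the 36 Wnt and TCF genes with summits in both lists and higher in none. The 3, named after their values were seen, were the receptor genes TNFRSF19 (8.04 in induced and 14.4 in uninduced cells), EPHB3 (23.8 in induced and 40.6 in uninduced cells) and ADRA2C (6.34 in induced and 16.9 in uninduced cells). The share of the gene covered by Pol II was lower in 33 of 38, 86.8% beside 77.9% over all genes. By fold, the Wnt and TCF list had members in both directions for H3K27ac and its Pol II count lay near that of all genes.

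The MYC network list held 25 genes, MYC itself with partners, antagonists and regulators. It had no lower and 1 higher gene for H3K27ac: TRRAP, a scaffold of acetyltransferase complexes that MYC recruits (37.6 in induced and 24.0 in uninduced cells). For Pol II, 2 were lower and 1 higher. The lower ones were ZBTB17, a partner through which MYC represses genes (14.02 in induced and 24.19 in uninduced cells), and MLXIPL, a glucose-sensing relative (20.2 in induced and 37.3 in uninduced cells), and the higher one was PLK1, a mitotic kinase (22.4 in induced and 12.9 in uninduced cells). The median Pol II ratio of the list, MYC included, was 0.863, beside 0.938 over all genes.

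Of 25 genes that MYC is known to activate, 1 was lower for H3K27ac, CCND2, and 1 higher, BOP1, a ribosome assembly factor (41.8 in induced and 23.9 in uninduced cells). BOP1 was also the one higher for Pol II (40.9 in induced and 27.2 in uninduced cells), and none was lower. Of 10 genes that MYC is known to repress, 1 was higher for H3K27ac, BTG2, an antiproliferative gene (30.3 in induced and 18.5 in uninduced cells). BTG2 was also higher for Pol II (52.3 in induced and 33.3 in uninduced cells), while GADD45B, a stress gene, was lower (38.3 in induced and 63.6 in uninduced cells). The genes activated and repressed by MYC thus gave 1 or no call in each direction and mark.

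**Figure D5:**
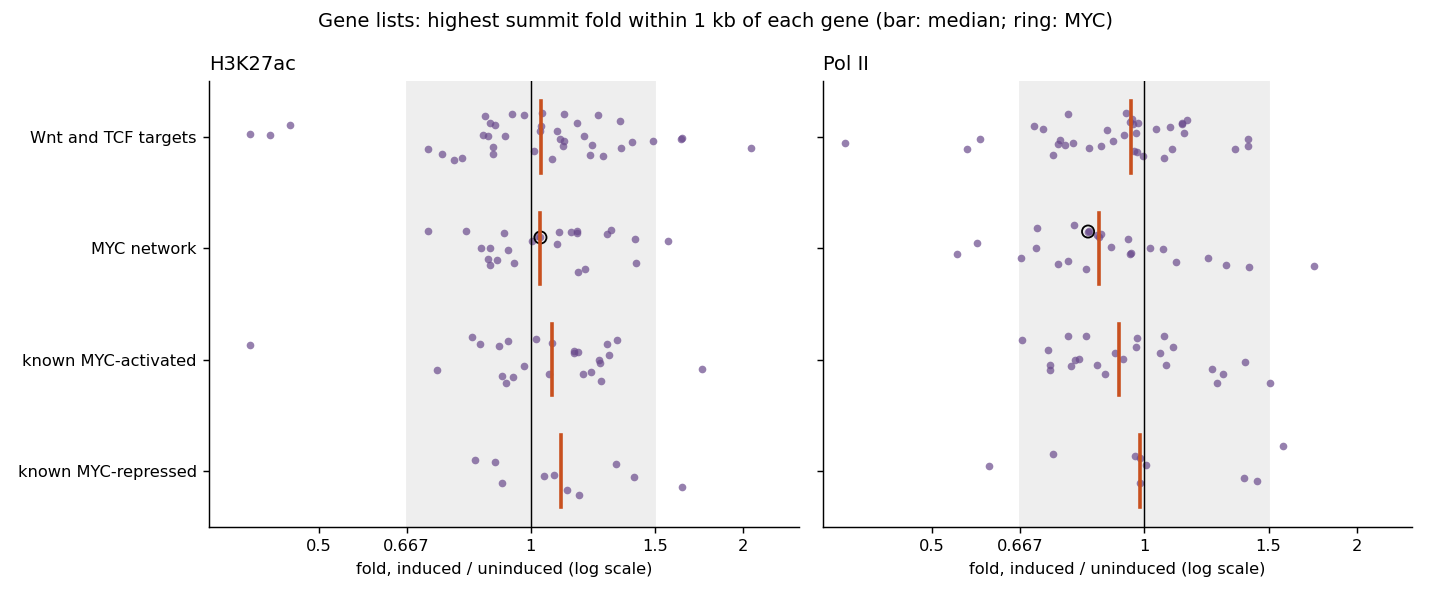
Ratio of the highest fold within 1 kb of each gene, induced over uninduced on a log axis, for H3K27ac (left) and Pol II (right), with a point for each gene, a bar at each list's median and a ring around MYC. MYC lies at 1.03 for H3K27ac and 0.832 for Pol II, and most members of each list lie inside the band of ratios under 1.5 either way.

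The label of the cells was checked on markers: 10 of 12 genes of colorectal epithelium and 5 of 12 of other cell types had an acetylated region at a gene end, the same number in each condition. Of the epithelial markers KRT20 and CDH17 had none, and of the others ACTA2, CD3E, DCN, COL1A1 and PECAM1 had one. The lists held 180063 H3K27ac summits in induced and 177089 in uninduced cells, and 94939 Pol II summits in induced and 109014 in uninduced cells. Over all shared Pol II elements the −log10 q was lower in induced cells in 84.1%, and in the window in 80.8%. The depth behind each list is unknown, and its part in these differences was not tested.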

How the data were processed

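DLD1 cells were profiled by ChIP-seq for H3K27ac and Pol II, with 75 bp single reads at 40 to 55M reads per sample, per the labels' protocols. Per the submitters' processing notes, which give no roles, the tools include MACS2 2.1.1.20160309, BWA 0.7.17-r1188, deepTools 3.5.0 and SAMtools 1.10. The builds named there are hg19 and hg38, and the positions used match GRCh38. The authors' deposited lists hold, per summit, its position, the fold (ratio) over background and −log10 values of p and q. The deposited −log10 q begins at 1.30, and the sources used here do not state pooling, filters or control.

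Regions were read 1-based on the 22 autosomes and X with Python 3.11.15, pandas 2.3.3 and NumPy 2.4.6. Regions of both lists sharing at least 1 bp became 1 element, counted as higher or lower from a ratio of 1.5 (or 0.667). Element counts equalled those of bedtools 2.31.1, and the joining was tested on simulated data. Wilson intervals (SciPy 1.17.1) cover counting error only. Genes were those of the RefSeq table of GRCh38.p14, which gives no strand, so distances start at the lower end of MYC, which like PVT1 is read toward higher positions. Of columns with per-sample values, 0 were unmatched, and the 24 RNA-seq samples were left out.

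The members, the gene lists and the rule for names were chosen with earlier results of these data known. The rule named genes of the neighbourhood, elements with Pol II, the strongest elements, those of most extreme ratio, the 5 genes most like MYC and up to 4 genes per list by H3K27ac ratio. Outside that rule, CDCA7, DKK4, ZBTB17, MLXIPL, PLK1 and GADD45B were named after their values were seen. So were TNFRSF19, EPHB3 and ADRA2C. Alternatives were stricter thresholds, lists of equal length, a wider join, another summit, other sizes and centred ratios.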

Additional observations from a re-analysis of the deposited data

How the results depend on the processing

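No paired analysis was possible because 1 list serves both samples of a condition, so no replicate could be left out and no test was run. Of 74 alternatives over 15 results, 35 left the value as it was or a count within 1.5 times, 38 moved it, and 1 turned a direction. The 3 alternatives of the upstream Pol II length were chosen after seeing the data. Counts are of elements of the window. With a −log10 q of at least 5 there were 9 H3K27ac elements in induced and 9 in uninduced cells alone, 0 Pol II elements in induced and 10 in uninduced cells alone, and 2 H3K27ac elements lower. With at least 10, there were 66 shared H3K27ac elements, 5 in induced and 9 in uninduced cells alone, and 11 shared Pol II elements, 1 in induced and 7 in uninduced cells alone, with 1 H3K27ac and 1 Pol II element lower. Lists of equal length gave 12 H3K27ac elements in induced cells alone. Joining within 1 kb gave 8 in induced and 7 in uninduced cells alone. With a called size of 2, there were 0 lower and 1 higher for H3K27ac and 0 lower for Pol II. With a called size below 1.5, the planned smaller one, there were 19 lower and 37 higher for H3K27ac, and 7 lower and 3 higher for Pol II. Ratios were also divided by the median over all shared elements (1.044 for H3K27ac and 0.9235 for Pol II, or 0.06 and −0.11 in log2). For H3K27ac this gave 9 lower and 9 higher, against 5 lower and 13 higher as reported. For Pol II it gave 1 lower and 2 higher. It turned the H3K27ac ratio at MYC to 0.988. By the MYC summit of highest −log10 q, the uncentred H3K27ac ratio was 1.06.

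The ratio of covered length for H3K27ac was 0.977, 0.949 and 0.975 with the q thresholds of 5 and 10 and with equal lengths. For Pol II it was 0.605, 0.562 and 0.716, and for Pol II upstream of MYC 0.465, 0.420 and 0.608. The q thresholds removed summits, and a region that kept any summit kept its full width. A weak flank thus counted where it was joined to a strong summit and not where it was split off. The difference in Pol II coverage of MYC was −13.1 percentage points with either threshold, since the weak split region falls away in induced cells. The equally weak stretch in uninduced cells stayed because it was joined to the promoter region, so this is no measure of a larger loss. Folds rest on a single list per condition, and the depth behind each list is unknown, so small ratios cannot be told from noise.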
